A study of Mus musculus with 30 samples.

Results

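Cartilage matrix genes were followed in mouse forelimb buds over the day in which the digit skeleton begins to condense. A set of 10 genes was taken by name: the fibrillar collagen chains *Col2a1*, *Col11a1* and *Col11a2*, the collagen IX chains *Col9a1*, *Col9a2* and *Col9a3*, the proteoglycan gene *Acan* with its link protein gene *Hapln1*, and the matrilin genes *Matn1* and *Matn4*. All 10 were found in the deposited count table, which lists 50833 genes, of which 20569 are protein-coding genes of the autosomes. Wild-type Swiss Albino embryos were exposed in utero at E10.5, when pregnant females received 1 injection of Wnt-C59 (C59) or of DMSO, its solvent. Per the methods, C59 was diluted in PBS with methylcellulose, Tween-20 and DMSO while controls received DMSO in PBS, so that these additives and C59 cannot be told apart. C59 blocks porcupine, the enzyme that adds a lipid to WNT proteins and that WNT proteins need for secretion. Forelimb buds were collected 1, 6, 12, 18 and 24 h later, which gave 10 groups of 3 polyA RNA libraries and 30 libraries in all. According to the study's methods, each replicate is the RNA of a single pair of forelimb buds, and C59-treated buds were staged by elapsed time and by their size and shape, since C59 also affects the somites used to stage controls. The methods also state that replicates came from different embryos, of at least 3 litters per condition and time. The labels themselves name no embryo or litter, so the p-values below measure the spread between libraries.

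Cartilage forms when limb mesenchyme condenses and its cells turn into chondrocytes, which secrete a matrix of type II collagen fibrils and hydrated proteoglycans. Type II collagen, made from *Col2a1* alone, is the main fibril, collagen XI chains (*Col11a1*, *Col11a2*) sit inside the fibril and limit its width, and collagen IX, a trimer of the products of *Col9a1*, *Col9a2* and *Col9a3*, decorates its surface. Aggrecan (*Acan*) binds hyaluronan together with link protein (*Hapln1*), and matrilins (*Matn1*, *Matn4*) connect fibrils and proteoglycans. SOX9, helped by SOX5 and SOX6, activates most of these genes, and WNT/β-catenin signalling is known to oppose chondrocyte formation in limb mesenchyme.

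All of them are autosomal, and positions are given on GRCm38 (mm10). *Col2a1* spans chr15:97975602-98004695 on the minus strand, *Col11a1* chr3:114030540-114220718, *Col11a2* chr17:34039437-34066685, *Col9a1* chr1:24177610-24252684, *Col9a2* chr4:121039385-121055322, *Col9a3* chr2:180597790-180622189, *Acan* chr7:79053483-79115099, *Hapln1* chr13:89539796-89611652, *Matn1* chr4:130944385-130955475, and *Matn4* chr2:164389393-164405160 on the minus strand. Their counts take in all annotated exons, untranslated ends included. On the opposite strand, *Tcfl5* shares 234 exonic bases (6.07%) with *Col9a3* and *Rbpjl* shares 149 (2.88%) with *Matn4*. The strand used in counting was not stated, though the methods set the libraries as unstranded for the deposited FPKM. *Tcfl5* and *Rbpjl* held 974 and 133 counts over all 30 libraries, with at most 65 and 14 in one library. *Matn4* itself had 16, 7 and 18 counts in DMSO at 1 h, where reads of *Rbpjl* could not be told apart from its own in the shared bases.

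Promoter sequence was available from RefSeq (GRCm38.p6) for 8 of the 10 genes in 10 windows of 250 bases before a start site, with none for *Col2a1* and *Col9a3*. Windows of *Matn4*, *Matn1* and *Col11a2* are shown because the matrilin genes had the largest changes with time and *Col11a2* holds a motif match. *Matn4* is at chr2:164405161-164405410 (minus strand), *Matn1* at chr4:130944135-130944384 and *Col11a2* at chr17:34038888-34039137 (both plus strand). Capitals mark the motif that was found.
Matn4: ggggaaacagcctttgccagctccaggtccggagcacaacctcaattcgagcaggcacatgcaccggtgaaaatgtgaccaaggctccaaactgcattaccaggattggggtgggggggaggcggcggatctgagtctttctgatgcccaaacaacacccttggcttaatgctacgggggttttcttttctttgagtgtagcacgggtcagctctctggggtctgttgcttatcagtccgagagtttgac
Matn1: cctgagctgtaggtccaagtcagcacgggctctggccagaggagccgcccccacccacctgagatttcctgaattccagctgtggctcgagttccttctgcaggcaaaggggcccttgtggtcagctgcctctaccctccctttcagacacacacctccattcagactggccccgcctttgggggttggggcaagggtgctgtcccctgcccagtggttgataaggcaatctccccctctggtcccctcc
Col11a2: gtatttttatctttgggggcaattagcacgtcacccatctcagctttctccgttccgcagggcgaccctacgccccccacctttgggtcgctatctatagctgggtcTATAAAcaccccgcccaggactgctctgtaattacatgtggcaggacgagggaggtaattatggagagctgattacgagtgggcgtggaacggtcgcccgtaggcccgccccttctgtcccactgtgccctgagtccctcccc

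Both strands were searched for the SOX-type letters ACAAAG. A second SOX-type word was ACAATG. The TCF/LEF type was searched as CTTTGAT, of which the first 5 letters also begin the reverse complement of the former SOX-type word. The TATA box was searched as TATAAA. *Col11a2* held TATAAA 143 to 138 bases before its start and *Col9a2* held CTTTGAT 178 to 172 bases before its RefSeq start, and the other 8 windows held none of these letters. Over all 32851 mouse promoter windows of the same length, 12.4% held TATAAA, 3.21% CTTTGAT, 16.5% ACAAAG and 10.7% ACAATG. A match describes letters and not a bound site.

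Library totals ran from 18188636 to 38974885 counts. *Axin2*, a direct WNT target used to read the treatment, had fallen by 1.97 ± 0.06 (log2, SE) at 6 h and by 1.45 ± 0.06 at 12 h, with −0.16 ± 0.09 at 18 h and −0.08 ± 0.07 at 24 h. Forelimb identity was as labelled, with a median of 261 CPM (counts scaled to library size with TMM factors) for *Tbx5* against 13.8 for the hindlimb gene *Tbx4* and 1.30 for *Pitx1*. Other cell types moved with treatment. At 12 h the summed CPM of 7 muscle markers was 72.5 to 161 in DMSO and 206 to 286 in C59, that of 4 neural crest and Schwann markers 37.1 to 52.0 and 85.3 to 114, and that of 8 limb mesenchyme markers 2050 to 2200 and 1437 to 1498. Sums of ectoderm, endothelium, macrophage, shoulder girdle, hindlimb and erythroid markers were also higher on average in C59 at 12 h, and the sclerotome and somite sum was lower, at 147 to 169 against 235 to 259. Of the somite markers, *Uncx* was at 0 in 4 libraries and *Mesp2* in 6. The part of these shifts in the results below was not tested. In bulk RNA, more cells of a type and more RNA per cell cannot be told apart.

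A single library stood apart for the matrix genes. In C59 at 12 h, replicate 1 was above the mean of its group for 9 of 10 genes, by 0.49 on average (log2), while replicates 2 and 3 deviated by averages of −0.13 and −0.37. In C59 at 6 h, replicate 3 was low (−0.24). Where leaving out either library changed a call, the result is given both ways.

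In DMSO controls, which follow normal development, 9 of the 10 genes rose between 1 h and 24 h and *Hapln1* fell. A gene was called here when its adjusted p (edgeR quasi-likelihood test, Benjamini-Hochberg over all genes tested) was below 0.05 and its log2 fold change was beyond 1. Of 13716 genes tested, 10.6% were called higher and 1.43% lower. The median log2 fold change of the 10 genes was 3.65, against 0.00 over all genes. Some marker sums of other cell types were also higher at 24 h without overlap in DMSO. Muscle was at a mean of 32.7 CPM at 1 h and 501 CPM at 24 h, and neural crest and Schwann at 20.4 and 95.9 CPM. The sums of ectoderm, macrophage, sclerotome and somite, shoulder girdle and hindlimb rose too. Limb mesenchyme (2136 to 2152 CPM at 1 h, 1895 to 1938 CPM at 24 h) and endothelium (302 to 323 and 282 to 286 CPM) were lower without overlap. The erythroid sums overlapped. The part of these shifts in the rise of the matrix genes was not tested.

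The matrilins started from almost nothing. *Matn4* was at 0.715, 0.343 and 0.640 CPM in the 3 DMSO libraries at 1 h, reached 19.0, 24.0 and 17.4 CPM by 12 h and stood at 116, 97.6 and 112 CPM at 24 h. The rise was 7.54 ± 0.22 on the log2 scale (SE, n = 3 against 3, edgeR adjusted p = 1.12e-13), and it was significant in each of the 4 intervals between collection times. *Matn1* had 0, 5 and 0 counts at 1 h, 14, 10 and 13 counts at 12 h, and 253, 278 and 369 counts at 24 h. Most of its increase came late, since its mean at 18 h was 16.6% of the mean at 24 h, and the interval from 18 h to 24 h alone added 2.55 ± 0.25 (edgeR adjusted p = 1.76e-05). Its log2 fold change from 1 h to 24 h, 7.39 ± 0.42, rests on 5 counts in 1 of 3 libraries at 1 h.

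*Acan* followed the same late course at a low level. It had 5, 1 and 2 counts at 1 h, 4, 34 and 7 at 12 h, 89, 264 and 108 at 18 h and 289, 307 and 332 at 24 h. The step from 12 h to 18 h was its largest, at 2.87 ± 0.41 (edgeR adjusted p = 0.000285), and its total log2 rise was 6.81 ± 0.51. Its partner *Hapln1* ran the other way. *Hapln1* was at 41.5, 39.0 and 38.2 CPM at 1 h, at 35.3, 31.3 and 35.1 CPM at 12 h and at 16.9, 20.6 and 16.3 CPM at 24 h. It fell by 1.14 over the course (SE 0.09, edgeR adjusted p = 8.98e-09), with 0.91 of this between 12 h and 18 h (SE 0.09, edgeR adjusted p = 8.5e-06). In FPKM, which corrects for length, *Hapln1* exceeded *Acan* 1.46-fold ± 0.391 (SD, n = 3) at 24 h, and no ratio is given at 1 h because of the few *Acan* counts.

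The collagen IX chains were uneven at the start and approached each other later. *Col9a1*, already present at 108, 116 and 107 CPM at 1 h, reached 303, 282 and 291 CPM at 24 h, a log2 rise of 1.41 ± 0.06 (edgeR adjusted p = 4.73e-12). *Col9a2* went from 8.80, 13.3 and 9.18 CPM to 183, 162 and 186 CPM and *Col9a3* from 6.03, 8.87 and 7.58 CPM to 128, 107 and 122 CPM, and their log2 rises were 4.10 ± 0.14 and 3.99 ± 0.15. The FPKM ratio of *Col9a2* to *Col9a1* was 0.0897 ± 0.0176 (SD, n = 3) at 1 h, 0.372 ± 0.0133 at 12 h and 0.630 ± 0.0370 at 24 h. That of *Col9a3* to *Col9a1* went from 0.0702 ± 0.0135 to 0.445 ± 0.0261. No library of one of these 3 times overlapped one of another in either ratio.

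Of the fibrillar chains, *Col2a1* and *Col11a1* rose gradually and *Col11a2* late. *Col2a1* was at 289, 347 and 327 CPM at 1 h and at 891, 767 and 833 CPM at 24 h (log2 rise 1.37 ± 0.07), and *Col11a1* went from 73.0, 72.8 and 74.5 CPM to 195, 168 and 173 CPM (1.28 ± 0.08). *Col11a2* was at 5.40, 6.13 and 3.70 CPM at 1 h, at 15.4, 15.8 and 11.4 CPM at 12 h and at 55.5, 41.9 and 32.5 CPM at 18 h. Its step from 12 h to 18 h was 1.61 ± 0.19 (edgeR adjusted p = 5.73e-05), and its level of 55.9, 38.2 and 53.9 CPM at 24 h overlapped that at 18 h.

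Counted by interval, at an adjusted p below 0.05 with no minimum fold, 5 of the 10 genes rose from 1 h to 6 h (4.17% of all genes tested), 6 from 6 h to 12 h (2.95%), 9 from 12 h to 18 h (7.27%) and 8 from 18 h to 24 h (7.21%). *Hapln1* fell in the interval from 12 h to 18 h, as 6.77% of all genes did. The count from 6 h to 12 h was 3 when DMSO 6 h replicate 1 or 3 or DMSO 12 h replicate 1 or 2 was left out, and the count from 18 h to 24 h was 5 without DMSO 18 h replicate 3 or DMSO 24 h replicate 1. The rise of *Acan* from 18 h to 24 h did not pass by DESeq2 (1.17 ± 0.66, DESeq2 adjusted p = 0.254).

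**Figure D1:**
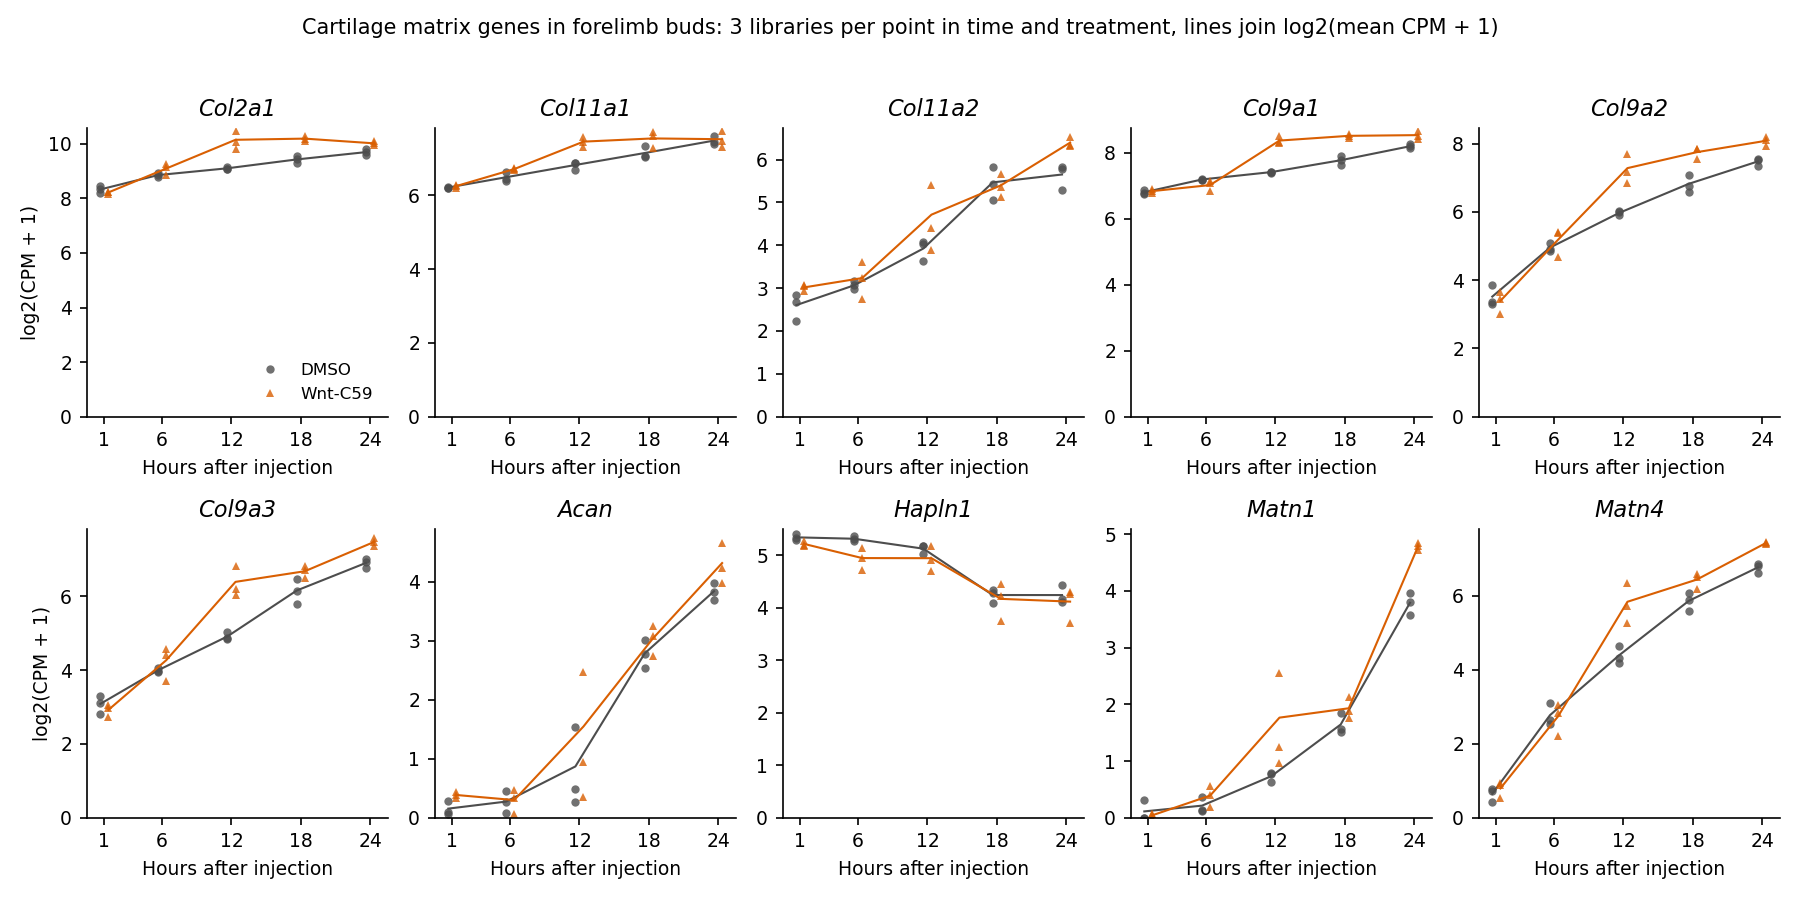
Level of each gene in every library as log2(CPM + 1) against hours after injection, with grey circles for DMSO, orange triangles for C59 and lines through the mean of 3 libraries. Points are moved sideways slightly by treatment and each panel has its own vertical scale from 0. The DMSO lines climb with time but for that of *Hapln1*, which declines. At 12 h the C59 libraries of *Col2a1* (908 to 1417 CPM) lie above the DMSO libraries (536 to 573 CPM). The C59 line of *Col2a1* does not climb throughout, with means of 1136 CPM at 12 h and 1038 CPM at 24 h.

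Compared per length, the order of the genes changed with time. In DMSO at 1 h *Col2a1* had the highest FPKM (44.8 ± 3.36, SD, n = 3), followed by *Col9a1* (26.7 ± 0.868), *Col11a1* (6.95), *Hapln1* (5.16), *Col9a2* (2.40), *Col9a3* (1.87), *Col11a2* (0.588), *Matn4* (0.204), *Matn1* (0.0185) and *Acan* (0.0184). The libraries of *Col9a2* and *Col9a3* overlapped, as did those of *Matn1* and *Acan*, and all other neighbours were separate. At 24 h the order was *Col2a1* (123 ± 9.42), *Col9a1* (72.4 ± 2.43), *Col9a2* (45.7), *Matn4* (40.4), *Col9a3* (32.3), *Col11a1* (17.7), *Col11a2* (6.31), *Matn1* (4.88), *Hapln1* (2.46) and *Acan* (1.73). *Col9a2* and *Matn4* overlapped there, as did *Col11a2* and *Matn1*. *Hapln1* had dropped from the 4th to the 9th place and *Matn4* had gone from the 8th to the 4th.

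Summed over the 10 genes, FPKM was 88.7 ± 3.97 in DMSO at 1 h, 165 ± 4.13 at 12 h and 347 ± 24.2 at 24 h. *Col2a1* made up 50.5% ± 1.93 of this sum at 1 h, 47.1% ± 1.09 at 12 h and 35.5% ± 0.490 at 24 h. The collagen IX chains together went from 34.9% ± 0.967 to 43.3% ± 0.754. In C59 the sum was 361 ± 78.1 at 12 h, with libraries at 449, 335 and 300 that all lay above the DMSO libraries of that time, and *Col2a1* held 46.5% ± 1.38 of it, a share that overlapped that in DMSO. At 24 h the sum was 477 ± 17.9 in C59 and the share of *Col2a1*, 32.7% ± 0.666, was below all DMSO libraries.

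**Figure D2:**
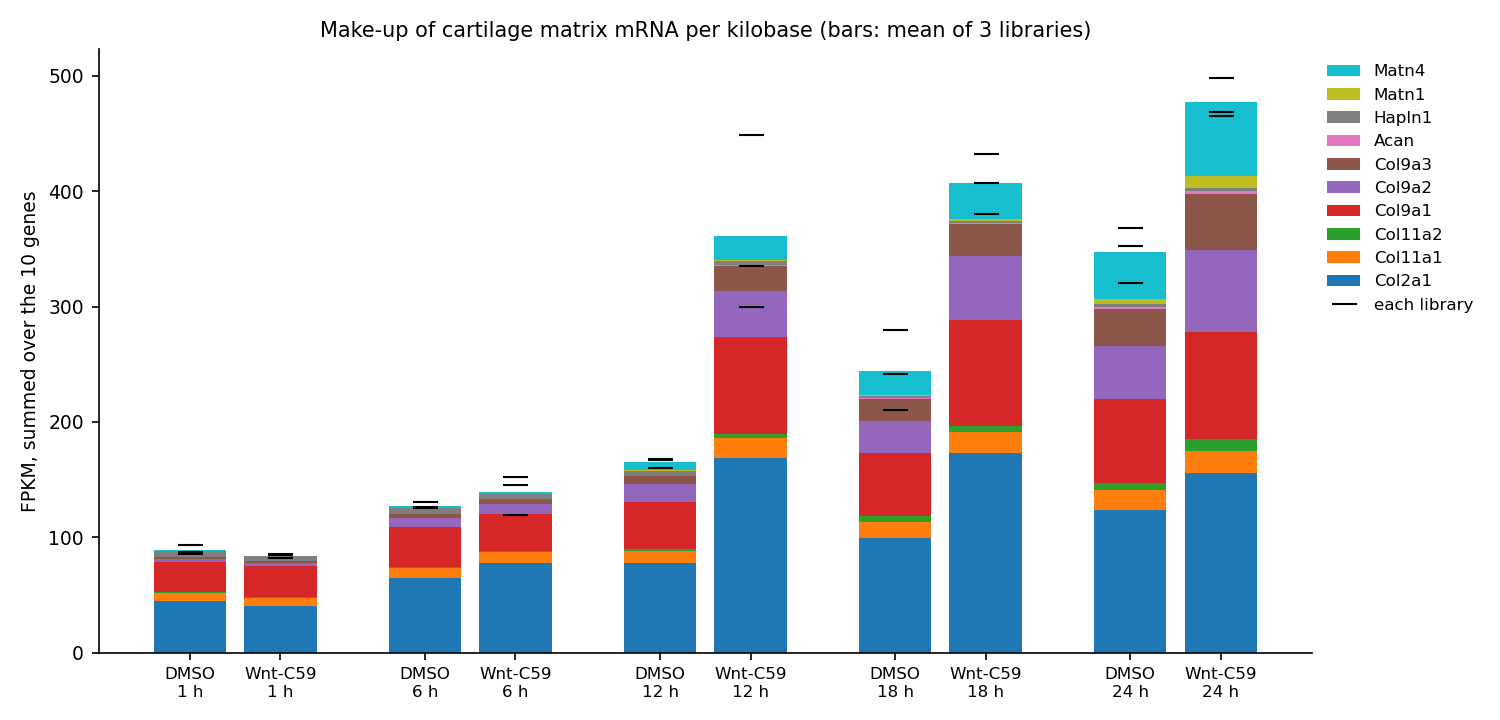
Summed FPKM of the 10 genes in the 10 groups, with stacked bars for the mean of each gene over 3 libraries and black ticks for the sum in each library. The sum stands at 165 in DMSO and 361 in C59 at 12 h, where the C59 ticks are spread from 300 to 449.

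At 1 h and 6 h the matrix genes of C59-treated buds differed little or not detectably from controls. At 1 h none of the 8 genes tested passed an adjusted p of 0.05 (edgeR), against 2.75% of all genes, 1 had an unadjusted p below 0.05, and *Acan* and *Matn1* were below the count filter. Their log2 fold changes were 0.50 ± 0.17 for *Col11a2* (edgeR adjusted p = 0.147), 0.33 ± 0.42 for *Matn4*, and between −0.19 and 0.04 for the other 6. *Col2a1* (−0.11 ± 0.06) passed only when DMSO 1 h replicate 1 was left out (−0.18, edgeR adjusted p = 0.0449).

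At 6 h no gene was called by edgeR or DESeq2 (1.17% of all genes were by edgeR), 4 had an unadjusted edgeR p below 0.05, and with no minimum fold 3 of the 8 tested passed, 2 of them higher (8.20% of all genes) and 1 lower (11.4%). *Col2a1* was at 437, 487 and 465 CPM in DMSO and 607, 570 and 463 CPM in C59 (log2 fold change 0.24 ± 0.08, edgeR adjusted p = 0.0485), and replicate 3 of C59 lay within the DMSO range. *Col11a1* was at 83.4, 98.5 and 85.9 CPM in DMSO and at 105, 106 and 102 CPM in C59, where all libraries were higher (0.22 ± 0.06, edgeR adjusted p = 0.02). At 6 h the marker sums of limb mesenchyme (2199 to 2230 CPM in DMSO, 1475 to 1607 CPM in C59) and of muscle (52.1 to 61.2 and 81.7 to 117 CPM) did not overlap either, and their part in these results was not tested. *Hapln1* was lower in all C59 libraries, at 25.2 to 34.4 CPM against 37.4 to 40.2 CPM (−0.38 ± 0.09, edgeR adjusted p = 0.00914). *Col9a1* was also lower in all, at 113 to 139 CPM against 142 to 148 CPM, but did not pass (−0.18 ± 0.07, edgeR adjusted p = 0.0773). Of 12295 genes with a mean of at least 1 CPM, 17.9% had all C59 libraries above all controls and 20.1% all below. *Col11a2* (0.19 ± 0.19) and *Matn4* (−0.04 ± 0.24) did not pass, and *Acan* and *Matn1* were below the count filter. The results for *Col2a1* and *Col11a1* were lost without DMSO 6 h replicate 1 or 3 or C59 6 h replicate 1 or 2, with adjusted p from 0.0693 to 0.235. Without C59 6 h replicate 3, *Col9a2* (0.45, edgeR adjusted p = 0.00589) and *Col9a3* (0.52, edgeR adjusted p = 0.00517) also passed, from 0.23 ± 0.15 and 0.28 ± 0.17 with all libraries.

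At 12 h, when *Axin2* was still low, 5 of the 6 cartilage collagen chains and both matrilins were higher in C59-treated buds. Of the 10 genes, 5 were called higher and none lower, against 3.53% higher and 1.43% lower of 13324 genes tested. With no minimum fold 7 were higher, as were 22.0% of all genes. The median log2 fold change of the 10 genes was 1.11 and that of all genes 0.02. The C59 libraries lay wholly above the DMSO libraries for 7 genes, which was the case for 27.5% of the 12511 genes with a mean of at least 1 CPM at 12 h.

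*Col2a1* was at 573, 542 and 536 CPM in DMSO and at 1417, 1084 and 908 CPM in C59. This is a log2 fold change of 1.05 ± 0.12 (SE, n = 3 against 3, edgeR adjusted p = 6.55e-05), and the lowest C59 library was well above the highest control. *Col11a1* was at 118, 118 and 102 CPM against 192, 175 and 158 CPM (0.64 ± 0.08, edgeR adjusted p = 6.87e-05), again without overlap. For *Col11a2* the C59 libraries were spread, with 41.8, 20.2 and 13.9 CPM against 15.4, 15.8 and 11.4 CPM in DMSO. Its groups overlapped and its change of 0.82 ± 0.33 did not pass (edgeR adjusted p = 0.0604).

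All 3 collagen IX chains rose. *Col9a1* was at 170, 171 and 167 CPM in DMSO and at 361, 310 and 317 CPM in C59, a tight difference of 0.96 ± 0.06 (edgeR adjusted p = 9.74e-07). *Col9a2* went from 63.6, 63.0 and 58.6 CPM to 208, 142 and 113 CPM (1.32 ± 0.17, edgeR adjusted p = 0.000139), and *Col9a3* from 28.0, 31.8 and 27.6 CPM to 112, 72.0 and 64.4 CPM (1.5 ± 0.18, edgeR adjusted p = 6.34e-05). The spread in C59 was wider than in DMSO for both, and no library overlapped.

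Both matrilins were called. *Matn4* was at 19.0, 24.0 and 17.4 CPM in DMSO and at 80.1, 51.6 and 37.5 CPM in C59 (1.48 ± 0.23, edgeR adjusted p = 0.000473). *Matn1* had 14, 10 and 13 counts in DMSO and 89, 33 and 21 counts in C59 (1.81 ± 0.59, edgeR adjusted p = 0.0273). The groups did not overlap for either gene. The proteoglycan genes gave no significant change, with 4, 34 and 7 counts of *Acan* in DMSO and 84, 22 and 6 in C59 (1.18 ± 0.92, edgeR adjusted p = 0.314). *Hapln1* was at 35.3, 31.3 and 35.1 CPM in DMSO and at 25.1, 29.0 and 35.3 CPM in C59 (−0.18 ± 0.11, edgeR adjusted p = 0.196).

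Without C59 12 h replicate 1, the number of genes called at 12 h was 3. *Col9a3* (1.24 ± 0.08), *Col9a2* (1.06 ± 0.09) and *Matn4* (edgeR adjusted p = 0.0002) were still called, *Col2a1* had 0.87 ± 0.07 (edgeR adjusted p = 8.99e-06), below the minimum fold, and *Matn1* 0.84 ± 0.38 (edgeR adjusted p = 0.0978). *Matn1* also missed the threshold when any one DMSO 12 h library was left out (edgeR adjusted p from 0.0678 to 0.0726) and with limma on log2(FPKM + 1) (0.54, limma adjusted p = 0.0862). *Acan* turned to −0.41 ± 0.82 and *Col11a2* had 0.28 ± 0.18. Without C59 12 h replicate 3, *Col11a2* was called (1.12, edgeR adjusted p = 0.00553) and *Hapln1* was lower (−0.31, edgeR adjusted p = 0.0195), and without replicate 2 *Col9a1* had 1.01 and was called.

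**Figure D3:**
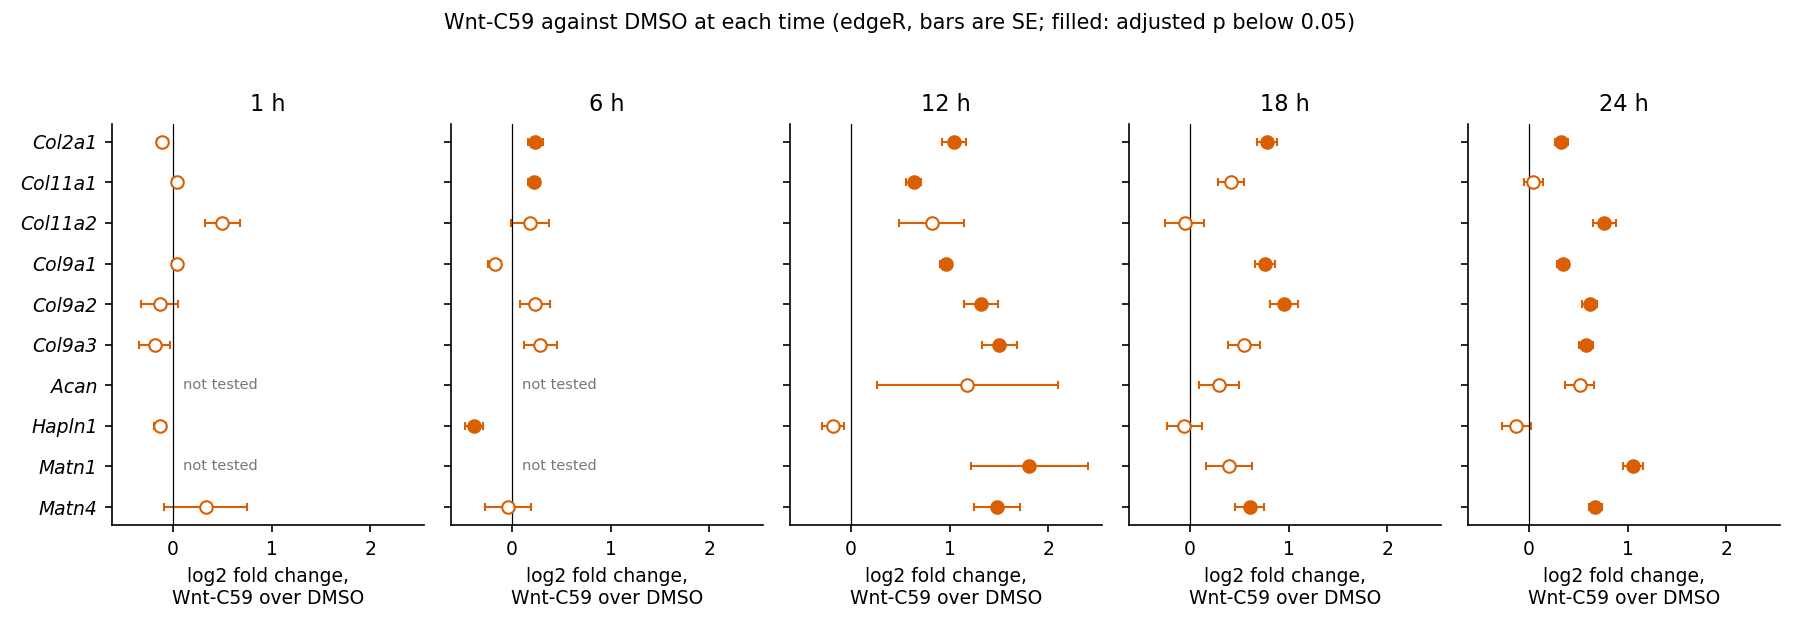
Log2 fold change of C59 over DMSO for each gene at 1, 6, 12, 18 and 24 h, with SE bars, filled points where the edgeR adjusted p was below 0.05 and open points elsewhere. At 12 h 7 of 10 points are filled and lie between 0.64 and 1.81, at 1 h none is filled, and *Hapln1* stays at or below 0 at each time.

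At 18 h, after *Axin2* had returned to within 0.16 of the controls, no gene was called by edgeR or DESeq2 (1.29% of all genes were by edgeR), although 6 had an unadjusted edgeR p below 0.05. With no minimum fold 4 genes were higher, against 3.46% of all genes. *Col2a1* was at 751, 690 and 627 CPM in DMSO and at 1161, 1263 and 1088 CPM in C59 (0.78 ± 0.10, edgeR adjusted p = 0.00424). *Col9a1* was at 238, 219 and 195 CPM against 359, 382 and 351 CPM (0.76 ± 0.10, edgeR adjusted p = 0.00424), and *Col9a2* at 134, 107 and 95.1 CPM against 188, 226 and 228 CPM (0.95 ± 0.14, edgeR adjusted p = 0.00629). Of the 10 genes, 5 had all C59 libraries above all controls, against 15.3% of 12616 genes with a mean of at least 1 CPM. In *Col2a1*, *Col9a1* and *Col9a2* no C59 library overlapped a control. Nor did the muscle marker sum at 18 h (262 to 315 CPM in DMSO, 325 to 478 CPM in C59), or those of crest, ectoderm and macrophage, which were also higher. The sums of sclerotome and somite (263 to 269 and 189 to 198 CPM) and of limb mesenchyme (1918 to 1989 and 1560 to 1910 CPM) were lower without overlap. The part of these shifts in the results at 18 h was not tested.

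*Matn4* was at 66.4, 58.6 and 46.9 CPM in DMSO and 72.1, 89.9 and 95.9 CPM in C59 at 18 h (0.60 ± 0.15, edgeR adjusted p = 0.0462), again without overlap. The other 6 genes did not pass, among them *Col9a3* (0.55 ± 0.17, edgeR adjusted p = 0.0852), whose groups did not overlap. *Col11a1* had 0.42 ± 0.13 (edgeR adjusted p = 0.101), *Matn1* 0.39 ± 0.23 and *Acan* 0.29 ± 0.20. *Col11a2* (−0.05 ± 0.20) and *Hapln1* (−0.06 ± 0.18) had values near 0. Libraries varied more at this time, with a biological coefficient of variation of 12.5% against 6.68% at 12 h. *Matn4* missed the threshold without any one DMSO 18 h library or without C59 18 h replicate 2 (edgeR adjusted p from 0.072 to 0.179), and *Col11a1* passed it without C59 18 h replicate 3 (0.53, edgeR adjusted p = 0.00892). *Col9a2* passed the minimum fold without DMSO 18 h replicate 1 (1.10) or C59 18 h replicate 1 (1.04).

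At 24 h *Matn1* was called higher, as were 0.417% of all genes, and with no minimum fold 7 genes were higher against 2.88% of all genes. *Matn1* was at 13.0, 10.9 and 14.6 CPM in DMSO and at 25.4, 26.5 and 27.7 CPM in C59 (1.05 ± 0.11, edgeR adjusted p = 0.000157). *Matn4* was at 116, 97.6 and 112 CPM against 174, 169 and 173 CPM (0.67 ± 0.07, edgeR adjusted p = 0.000157), and *Col11a2* at 55.9, 38.2 and 53.9 CPM against 80.6, 78.3 and 91.1 CPM (0.76 ± 0.12, edgeR adjusted p = 0.00279). All C59 libraries were above all controls in 7 of the 10 genes, these 3 included. This was the case for 13.2% of the 12722 genes with a mean of at least 1 CPM at 24 h. Some marker sums of other cell types were also separate at 24 h. Muscle was at 456 to 546 CPM in DMSO and 628 to 857 CPM in C59, and ectoderm at 315 to 322 and 372 to 407 CPM. Macrophage was at 24.2 to 29.2 and 31.9 to 36.2 CPM, and endothelium was lower in C59, at 282 to 286 and 239 to 260 CPM. The other marker sums overlapped. The part of these shifts in the results at 24 h was not tested.

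The remaining genes that passed at 24 h were *Col9a2* (0.61 ± 0.08), *Col9a3* (0.58 ± 0.07), *Col9a1* (0.34 ± 0.06) and *Col2a1* (0.33 ± 0.07). *Col2a1* stood at 891, 767 and 833 CPM in DMSO and at 1039, 985 and 1090 CPM in C59. *Acan* had 0.51 ± 0.15 (edgeR adjusted p = 0.0651), *Col11a1* 0.04 ± 0.09 and *Hapln1* −0.13 ± 0.15. *Col2a1* and *Col9a1* missed the threshold without DMSO 24 h replicate 2 or 3 (edgeR adjusted p from 0.0527 to 0.0845), *Matn1* was at 0.94 and so below the minimum fold without DMSO 24 h replicate 2, and *Acan* passed without C59 24 h replicate 1 (0.65, edgeR adjusted p = 0.0181).

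The change of the C59 effect from one time to the next was tested as an interaction. Between 6 h and 12 h the log2 effect became more positive for 6 genes, as it did for 6.59% of all genes. For *Col9a1* and *Matn4* it started below 0, at −0.18 ± 0.07 and −0.04 ± 0.24 at 6 h. The increases were 1.52 ± 0.40 for *Matn4*, 1.22 ± 0.29 for *Col9a3*, 1.13 ± 0.10 for *Col9a1*, 1.08 ± 0.27 for *Col9a2*, 0.81 ± 0.17 for *Col2a1* and 0.42 ± 0.11 for *Col11a1* (edgeR adjusted p from 2.08e-06 to 0.0149). The same number passed with any one library left out. The effect shrank for *Col9a3* between 12 h and 18 h (−0.96 ± 0.27, edgeR adjusted p = 0.0444, 3.55% of all genes), and for *Col2a1* (−0.46 ± 0.12, edgeR adjusted p = 0.0359) and *Col9a1* (−0.42 ± 0.12, edgeR adjusted p = 0.0442) between 18 h and 24 h (3.43% of all genes). These 3 results depended on single libraries. *Col9a3* missed the threshold without C59 12 h replicate 1 or 2, C59 18 h replicate 1, DMSO 18 h replicate 1 or 2 or any one DMSO 12 h library (0 genes, edgeR adjusted p from 0.0556 to 0.109), and *Matn4* joined it without C59 12 h replicate 3 (2 genes). *Col2a1* and *Col9a1* both missed it without C59 18 h replicate 2, C59 24 h replicate 1 or 2, DMSO 18 h replicate 2 or 3 or DMSO 24 h replicate 1 or 3, and *Col9a1* alone without DMSO 24 h replicate 2 or the first C59 replicate of 18 h. Without DMSO 18 h replicate 3 the effect on *Col11a2* grew instead (1 gene), and without C59 18 h replicate 3 *Col11a1* and *Matn1* also passed (4 genes).

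Set beside older controls, the C59-treated buds at 12 h were above DMSO buds of 24 h for some matrix genes and below them for others. These comparisons share the C59 12 h libraries with each other and with the comparison at 12 h. Against DMSO at 24 h, 3 genes were higher (17.0% of all genes) and 5 lower (18.9%). *Hapln1* was higher by 0.77 ± 0.12 (edgeR adjusted p = 0.000179), *Col2a1* by 0.49 ± 0.12 (edgeR adjusted p = 0.00443) and *Col9a1* by 0.21 ± 0.07 (edgeR adjusted p = 0.0247). *Acan* was lower (−2.83 ± 0.54, edgeR adjusted p = 0.000921), as were *Matn1* (−2.43 ± 0.36, edgeR adjusted p = 0.000127), *Col11a2* (−0.94 ± 0.29, edgeR adjusted p = 0.0212), *Matn4* (−0.91 ± 0.20, edgeR adjusted p = 0.00239) and *Col9a3* (−0.48 ± 0.18, edgeR adjusted p = 0.0442). *Col11a1* (0.01 ± 0.09) and *Col9a2* (−0.16 ± 0.16) did not pass.

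Against DMSO at 18 h, 5 genes were higher (18.3% of all genes), namely *Hapln1* (0.77 ± 0.12), *Col2a1* (0.75 ± 0.12), *Col9a1* (0.63 ± 0.07), *Col9a2* (0.50 ± 0.17) and *Col11a1* (0.34 ± 0.09). *Acan* was lower (−1.69 ± 0.57, edgeR adjusted p = 0.0291, 19.2% of all genes). All 3 C59 12 h libraries of *Col2a1* and of *Col9a1* were above the mean of DMSO at 24 h, whereas the *Matn4* libraries matched DMSO levels interpolated at 21.2, 17.4 and 15.6 h and the *Acan* libraries those at 17.1, 12.6 and 7.02 h.

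The calls against older controls depended in part on single libraries and on the tool. Without C59 12 h replicate 1, *Col9a1* against DMSO at 24 h (0.14, edgeR adjusted p = 0.126) and *Col9a2* against DMSO at 18 h (0.22, edgeR adjusted p = 0.18) were lost, *Col9a2* was lower than in DMSO at 24 h (−0.43, edgeR adjusted p = 0.0155), *Col11a2* (−1.31) and *Matn1* (−0.85) were lower than in DMSO at 18 h, and *Acan* was at −4.39 against 24 h and −3.24 against 18 h. *Col2a1* was then 0.30 above DMSO at 24 h, and *Col11a2* (−1.49) and *Col9a3* (−0.76) were further below it. *Acan* against DMSO at 18 h was also lost without C59 12 h replicate 2 or 3 or DMSO 18 h replicate 2 or 3. *Col9a3* and *Col11a2* against DMSO at 24 h were lost without C59 12 h replicate 2 or 3 or DMSO 24 h replicate 1 or 3, and *Col9a3* and *Col9a1* without DMSO 24 h replicate 2. *Col9a1* was likewise lost without DMSO 24 h replicate 3, and *Col9a2* against DMSO at 18 h without DMSO 18 h replicate 2 or 3. DESeq2 also ended 4 of these calls. They were *Acan* (DESeq2 adjusted p = 0.191) and *Col9a2* (0.0729) against DMSO at 18 h, and *Col11a2* (0.0579) and *Col9a3* (0.0963) against DMSO at 24 h. *Col11a2* passed against DMSO at 18 h when no filter on low counts was used (−0.77, edgeR adjusted p = 0.0329).

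**Figure D4:**
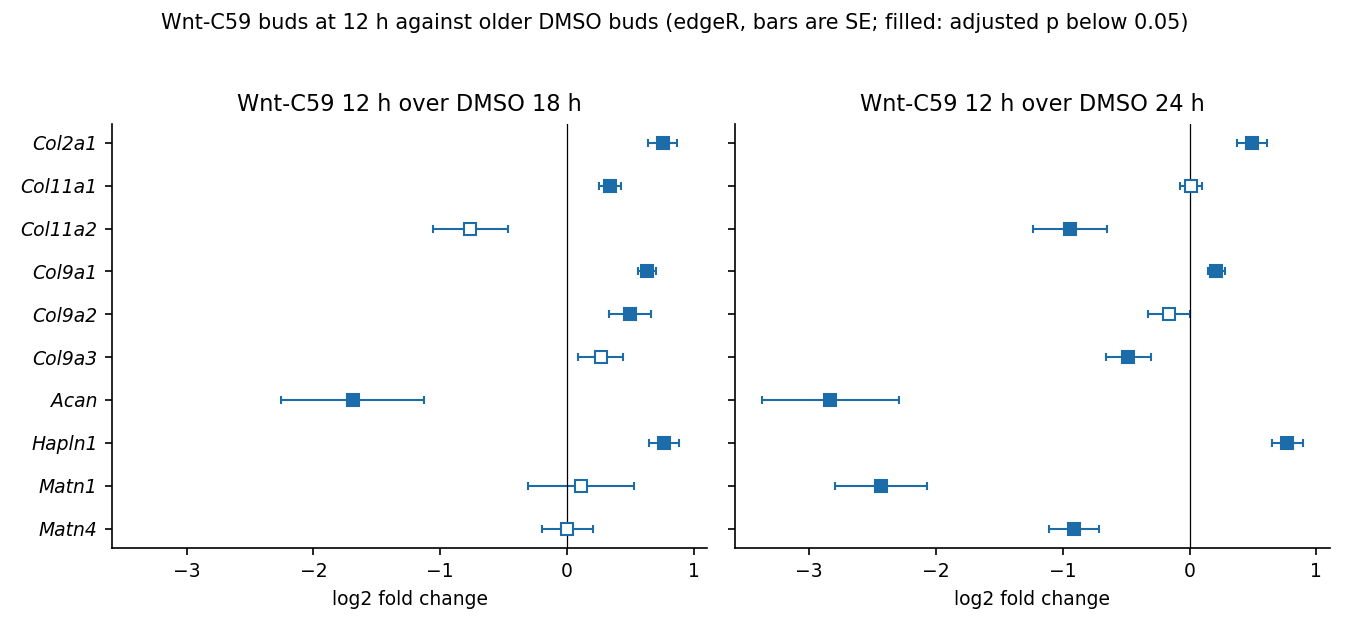
Log2 fold change of C59-treated buds at 12 h over DMSO buds at 18 h (left) and 24 h (right) for each gene, with SE bars and filled points where the edgeR adjusted p was below 0.05. *Col2a1*, *Col9a1* and *Hapln1* lie to the right of 0 in both panels and *Acan* to the left, at −1.69 and −2.83.

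Within the C59-treated buds, 9 genes rose between 6 h and 12 h (16.9% of all genes tested), all but *Hapln1*, with 1.07 ± 0.13 for *Col2a1*, 2.14 ± 0.22 for *Col9a2* and 3.31 ± 0.26 for *Matn4*. From 12 h to 18 h *Acan* rose (1.97 ± 0.51, edgeR adjusted p = 0.014, 8.72% of all genes, and 3.54 ± 0.40 without C59 12 h replicate 1) and *Hapln1* fell by 0.82 (SE 0.19, edgeR adjusted p = 0.00718, 8.13% of all genes), and the other 8 did not pass, with 0.03 ± 0.13 for *Col2a1*. From 18 h to 24 h 5 genes rose (14.3% of all genes): *Matn1* (3.23 ± 0.34), *Acan* (1.38 ± 0.42), *Col11a2* (1.01 ± 0.27), *Matn4* (0.99 ± 0.21) and *Col9a3* (0.79 ± 0.19). *Col2a1*, *Col9a1* and *Col11a1* thus had means at 12 h of 109%, 89.1% and 95.5% of their own C59 level at 24 h, while in DMSO the same shares were 66.2%, 58.0% and 63.0%.

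From 1 h to 6 h 5 genes rose in C59 (13.5% of all genes), and 6 without C59 6 h replicate 3, when *Col9a1* also passed (0.25, edgeR adjusted p = 0.0429). Over the whole course from 1 h to 24 h 9 were called higher (11.2%) and *Hapln1* lower (2.34%). The number of genes that changed from 12 h to 18 h was 2 with all libraries and 7 without C59 12 h replicate 1, when *Matn1*, *Col11a2*, *Matn4*, *Col9a2* and *Col9a3* also rose by 0.56 to 1.26. It was 1 without C59 12 h replicate 2. *Acan* was lost from 6 h to 12 h without C59 12 h replicate 1 (1.41, edgeR adjusted p = 0.135) or C59 6 h replicate 3, and from 18 h to 24 h without C59 18 h replicate 2 or C59 24 h replicate 2 or 3 (edgeR adjusted p from 0.0505 to 0.0925). By DESeq2 the rise of *Acan* did not pass from 12 h to 18 h (DESeq2 adjusted p = 0.0714) or from 18 h to 24 h (1.38 ± 0.78, DESeq2 adjusted p = 0.187).

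Related gene groups were read at 12 h in the same fit. Of the transcription factors of chondrogenesis, 9 of 9 tested genes were higher (7 past the minimum fold), with a median of 1.20. *Sox9* was at 264 ± 19.8 CPM in DMSO and 601 ± 73.2 CPM in C59 (SD, n = 3, log2 fold change 1.18 ± 0.08), and its partners *Sox5* (1.20 ± 0.06) and *Sox6* (1.56 ± 0.10) also rose. *Nkx3-2*, a repressor that promotes chondrocyte fate, had the largest change in this list (3.16 ± 0.25), from 1.23 to 11.1 CPM. *Sox9* was higher already at 6 h (0.72 ± 0.05, edgeR adjusted p = 1.00e-06), when *Sox5* (0.03 ± 0.07) and *Sox6* (0.05 ± 0.11) did not pass, and at 24 h the 3 genes had −0.04 ± 0.08, −0.02 ± 0.10 and 0.09 ± 0.11.

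Of 16 other matrix genes of cartilage tested, 6 were higher, none was lower and 10 did not pass, and the median was 0.59. *Cnmd*, which codes for chondromodulin of cartilage, rose by 1.53 ± 0.29 and *Mia* by 1.41 ± 0.44, the latter from only 1.08 to 2.90 CPM. *Col14a1* (−0.79 ± 0.36, edgeR adjusted p = 0.0917) and *Hapln3* (−0.38 ± 0.25) did not pass. The machinery that hydroxylates, folds and crosslinks collagen had 11 of 22 genes higher and 1 lower, with a small median of 0.15. *Creb3l2*, which drives secretory genes in chondrocytes, rose by 0.85 ± 0.06 and the crosslinking enzyme gene *Lox* by 0.80 ± 0.21, and *Pcolce2* fell by 0.67 (SE 0.14). Of the genes for chondroitin sulfate, 9 of 23 were higher and 2 lower (median 0.09), led by the sulfate donor synthase *Papss2* (1.06 ± 0.19) and the sulfotransferase *Chst11* (0.73 ± 0.07), and the hyaluronan synthase *Has2* fell by 0.52 (SE 0.13).

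Of the turnover genes, 7 of 14 were higher and 1 lower (median 0.18), with *Adamts15*, a protease that cuts proteoglycans, at 0.99 ± 0.14 and *Adamts20* at −0.75 ± 0.13. Of the 7 tested genes of hypertrophic cartilage and bone, 2 were higher and 2 lower (median 0.03). Both extremes were at low levels. *Spp1* rose by 1.97 ± 0.26, from 0.955 to 3.75 CPM, and *Alpl*, the bone phosphatase, fell by 1.34 (SE 0.18), from 6.46 to 2.55 CPM. Of the interstitial collagens, 6 of 10 were higher and 1 lower (median 0.36), with *Col1a1* at 0.51 ± 0.08 and *Col3a1* at −0.48 ± 0.08. Among all genes tested at 12 h, 22.0% were higher and 25.5% lower with no minimum fold.

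**Figure D5:**
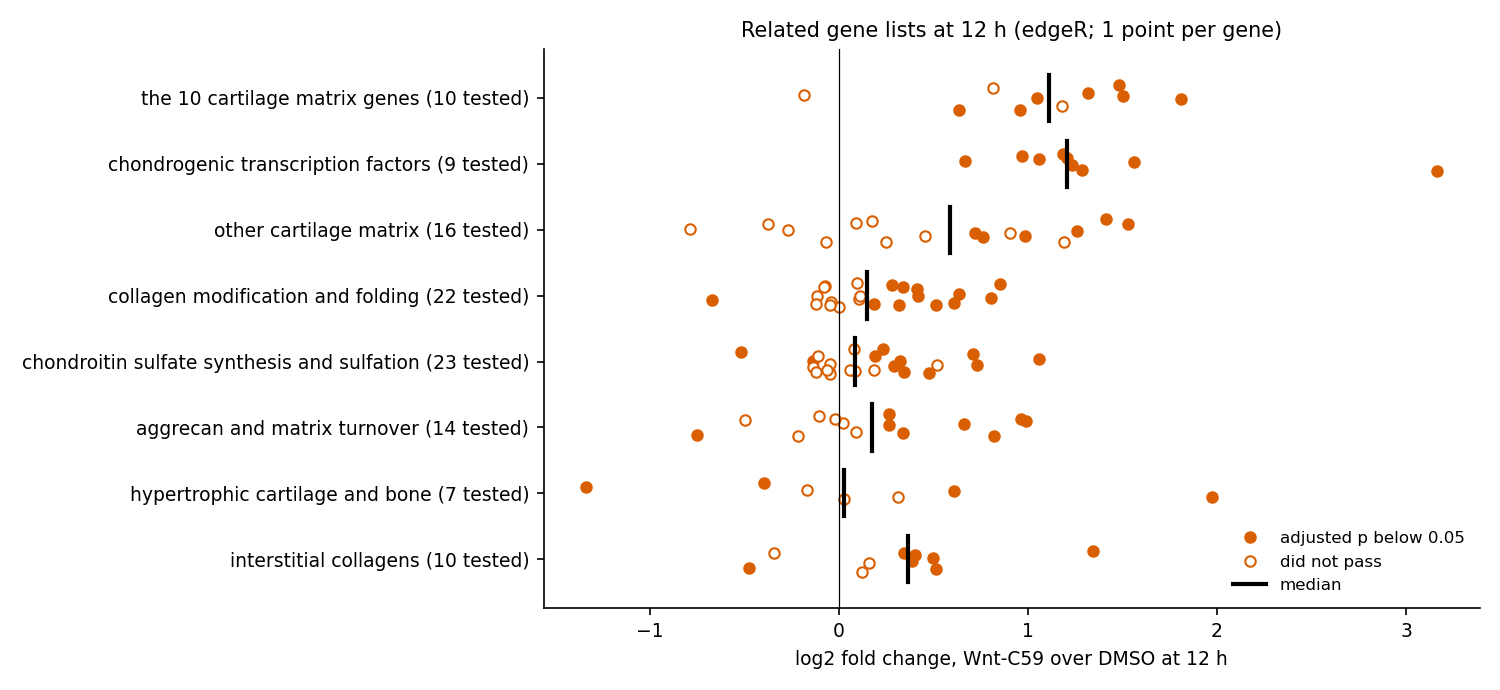
Log2 fold change of C59 over DMSO at 12 h, with 1 point per tested gene in the 10 cartilage matrix genes and in 7 related lists, filled points where the edgeR adjusted p was below 0.05 and a black bar at the median of each list. Medians are 1.11 for the 10 genes, 1.20 for the chondrogenic transcription factors, 0.59 for other cartilage matrix and 0.03 to 0.36 for the other 5 lists.

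Across the 30 libraries, 9 of the 10 genes moved together and *Hapln1* against them. The closest pair was *Col9a2* and *Matn4* (Pearson r = 0.99 over log2(CPM + 1)), then *Col9a3* and *Matn4* (0.99), and the correlation of *Hapln1* with the mean standardised level of all 10 was −0.82. These libraries share their time points and treatments, so r describes a common course. Once group means were removed, the median r over the 45 pairs was 0.55. Pairs ran from −0.60 (*Hapln1* and *Matn4*) to 0.91 (*Col9a2* and *Col9a3*). *Col11a1* had 0.23 to 0.32 with *Col9a2*, *Col9a3*, *Matn1* and *Matn4*. The largest mean deviation was that of C59 12 h replicate 1 (0.49), so this group weighs most in these values. Outside the set, among 12542 genes with a mean of at least 1 CPM, the course most like the mean of the 10 genes was that of *Cnmd* (r = 0.989), followed by *Ctdspl* (0.986), *Timp2* (0.985), *Epb41l1* (0.984), *Rflna* (0.982), *Ltbp3* (0.982), *Papss2* (0.981), *Bmper* (0.980), *Ccdc80* (0.980) and *Ebf1* (0.980). *Cnmd* was at 5.95 CPM in DMSO at 12 h, 17.4 CPM in C59 at 12 h and 21.3 CPM in DMSO at 24 h.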

How the data were processed

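PolyA RNA of forelimb buds was sequenced in 30 libraries. Per the study's methods and the submitters' processing notes, the authors trimmed reads with cutadapt 1.16, aligned them to mm10 with STAR 2.7.0e and deposited counts per gene, unnormalised, with the strand setting not given in the sources used here. The authors also deposited FPKM from Cufflinks 2.2.1, run with the library type set as unstranded and corrected for multiply mapped reads and bias.

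Counts of 20569 protein-coding autosomal genes were tested with edgeR 4.0.16 in R 4.3.3 (TMM scaling, quasi-likelihood F test, Benjamini-Hochberg over all genes tested). Low genes were dropped by filterByExpr (min.count 10, min.total.count 15). Each collection time was fitted on its 6 libraries, the DMSO and C59 courses on 15 each, and the changes of effect and the older controls on 12 each. Calls between treatments at 1 time, and from 1 h to 24 h, required both an adjusted p under 0.05 and more than 1 unit of log2 change, and the other comparisons the adjusted p alone. SE was the log2 fold change divided by the square root of F. CPM were computed with TMM factors over all 30 libraries. Levels of different genes were compared in FPKM only. The scripts were tested on simulated data. Alternatives were DESeq2 1.42.0, its size factors, no filter, all genes, no minimum fold, all libraries in 1 fit, a replicate block, limma 3.58.1 on log2(FPKM + 1) and log2(FPKM + 0.1), and leaving out each library. A value with 1 library left out pools the spread over the libraries that remain.

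All 10 members could be named in every comparison. From each further list the 2 highest and 2 lowest log2 fold changes at 12 h could be named, with *Sox9*, *Sox5*, *Sox6* and *Axin2* always. The members and lists were chosen with earlier results of these data known.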

Additional observations from a re-analysis of the deposited data

Results flagged for a closer look

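The C59 effect differed between collection times, by the interaction test, in 9 cases among the cartilage matrix genes. From 6 h to 12 h the log2 effect increased by 1.52 for *Matn4*, 1.22 for *Col9a3*, 1.13 for *Col9a1*, 1.08 for *Col9a2*, 0.81 for *Col2a1* and 0.42 for *Col11a1*. From 12 h to 18 h the change was −0.96 for *Col9a3*. From 18 h to 24 h it was −0.46 for *Col2a1* and −0.42 for *Col9a1*. The changes from 12 h to 18 h and from 18 h to 24 h depended on single libraries, as given above.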

How the results depend on the processing

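Counts of members called moved by less than 1.5 times in 114 of 122 combinations of comparison and alternative. Without a minimum fold the count was 3 for the 6 h libraries, 4 for 18 h and 7 for 24 h, and with limma on log2(FPKM + 1) it was 0 at 24 h. DESeq2 gave 1 for C59 from 12 h to 18 h and 2 for the change of effect from 12 h to 18 h. The change from 18 h to 24 h gave 1 with all genes and 0 with the replicate block. Otherwise the block moved no count by over 1.5 times. With group means removed, same-numbered libraries of the 2 treatments correlated at −0.29 to 0.17. At 12 h they had 0.04, 0.12 and 0.17, and differently numbered ones −0.13 to 0.01. Deviations of 3 libraries sum to 0 within a group, so these values cannot show whether same-numbered libraries shared a litter or batch. With each library left out in turn, counts ranged from 3 to 6 at 12 h, 0 to 1 at 18 h, 0 to 1 at 24 h, 3 to 5 in DMSO from 6 h to 12 h, 5 to 8 in DMSO from 18 h to 24 h, 1 to 7 in C59 from 12 h to 18 h, 0 to 2 and 0 to 4 for the changes of effect from 12 h to 18 h and from 18 h to 24 h, and 5 to 8 for C59 at 12 h against DMSO at 24 h. Among single values, 11 of 888 changed sign with 1 library left out, none of them called. Their ranges were −0.31 to 0.068 for *Col9a2* in the comparison of treatments 1 h after injection. At 6 h they were −0.069 to 0.41 for *Col11a2* and −0.25 to 0.21 for *Matn4*, and at 12 h −0.41 to 2.63 for *Acan*. At 18 h they were −0.22 to 0.16 for *Col11a2* and −0.23 to 0.12 for *Hapln1*, and at 24 h −0.076 to 0.14 for *Col11a1* and −0.24 to 0.044 for *Hapln1*. The cause of these changes was not tested. *Acan* and *Matn1* are limited by depth, with under 15 counts in every library at 1 h and 6 h.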
